A study of Mus musculus with 6 samples.

Results

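The genes described here are 39 mouse genes that encode the machinery of DNA replication and the enzymes that make its building blocks. They were taken as a named list and all 39 were found by symbol among the 54532 Ensembl genes in the files. By role, 10 license replication origins, 25 act at the replication fork and 4 supply deoxynucleotides. RNA was measured in LSK cells of bone marrow, defined by absent lineage markers with Sca-1 and c-Kit on the surface, a gate in which blood stem and progenitor cells are enriched. All 6 libraries came from male mice with the floxed allele labelled Phf6fl-R274X/Y of the X-linked gene Phf6. In the 3 control libraries this allele was present without Cre. The 3 R274X libraries carried Vav1-Cre in addition, a driver active in blood cells, so Cre itself is part of the comparison. The sources used here give no age, no pooling and no statement that the libraries came from separate animals, and p-values therefore reflect only library-to-library spread, possibly a technical one.

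A cell copies its genome once in each division. In the G1 phase the origin recognition complex, with CDC6 and CDT1, loads the ring-shaped MCM helicase onto DNA, which licenses the origin. In S phase CDC45 and the GINS complex join the helicase, polymerase alpha with primase starts each strand, the RFC complex loads the sliding clamp PCNA, and polymerases delta and epsilon extend the strands. Ribonucleotide reductase, thymidylate synthase and thymidine kinase keep the deoxynucleotide pools filled. Adult blood stem cells divide rarely, while the multipotent progenitors in the same gate divide more often.

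The libraries held 15406314 to 18106065 counts, of which the 39 genes took 0.511% to 0.528% across the controls and 0.524% to 0.567% across the R274X libraries. Phf6 itself measured 29.6 to 33.5 CPM (counts scaled by TMM library size) across the controls and 8.29 to 10.25 CPM across the R274X libraries (log2 fold change -1.81, SE 0.123, edgeR adjusted p = 6.67e-06). The gate markers were present in every library, with Kit at 96.7 to 158 CPM and Ly6a (Sca-1) at 142 to 247 CPM as group means. Kit, Cd34 and Flt3 fell (log2 -0.71, -0.62 and -0.34) and Ly6a rose (0.80). Markers of cells outside the gate were also present. Their summed levels were 387 to 922 CPM in controls and 1706 to 3478 CPM in R274X libraries for 12 B cell genes, 305 to 872 and 2025 to 4614 CPM for 6 plasma cell genes, 233 to 452 and 1003 to 2132 CPM for 8 macrophage genes and 926 to 1250 and 1846 to 3149 CPM for 9 erythroid genes. For 7 neutrophil genes the ranges overlapped (16987 to 28997 and 13166 to 34965 CPM), as they did for 8 T and NK cell genes (192 to 196 and 175 to 196 CPM). The globin genes Hbb-bs, Hbb-bt and Hba-a1 made up most of the erythroid sum. Of the 9 erythroid genes, 7 had a positive log2 fold change, while Klf1 (-0.06) and Car1 (-0.75) had a negative one. No marker of cells outside the gate was at 0 in all libraries. Of the members of each list, 6 of 12 B cell, 4 of 6 plasma cell, 6 of 8 macrophage, 2 of 9 erythroid, 0 of 7 neutrophil and 6 of 8 T and NK cell genes rose, and 1 of the last list fell. That gene, Nkg7, made up most of the T and NK cell sum in controls, and its mean dropped from 151 to 88.4 CPM. The other 7 genes of the list were each higher in every R274X library than in every control. Their control means were far lower, from 0.214 CPM (Cd3e, 3, 7 and 2 counts in control 1 to 3) to 25.5 CPM (Il7r). The fall of Nkg7 offset their rise in the sum, and which cells its RNA came from was not tested. Immunoglobulin transcripts made up 0.649%, 0.293% and 1.18% of counts in control 1 to 3 and 6.85%, 7.95% and 4.45% in R274X 1 to 3. The part of these cells in the results below was not tested, and in bulk RNA a changed share of a cell type and changed RNA per cell cannot be told apart.

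Some replication genes were higher in the R274X libraries, most by less than 1.5-fold, and the enzymes of deoxynucleotide supply had the highest median of the 3 roles. All 39 passed the filter on low counts, and 14 rose at an adjusted p under 0.05 (edgeR quasi-likelihood test, adjusted over all 14608 tested genes), with none falling. Over all tested genes, 10.1% were called higher and 7.89% lower. By role, 4 of 4 nucleotide supply genes, 9 of 25 fork genes and 1 of 10 licensing genes rose. The median log2 fold change was 0.42 in nucleotide supply, 0.20 at the fork and 0.15 in licensing, beside -0.02 for all tested genes. All 3 R274X libraries lay above all 3 controls for 23 of the 39 genes, where 18.9% of all tested genes showed this. By role that was 4 of 4, 13 of 25 and 6 of 10. The sign was positive for 37 genes and negative for 2, Pole and Pole2, but under quantile normalization of FPKM it was positive for 21 and negative for 18. In that fit the median was 0.05 for the 39 genes and -0.07 for all tested genes. These are descriptions of a chosen list, and the differences between the roles were not tested.

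**Figure D1:**
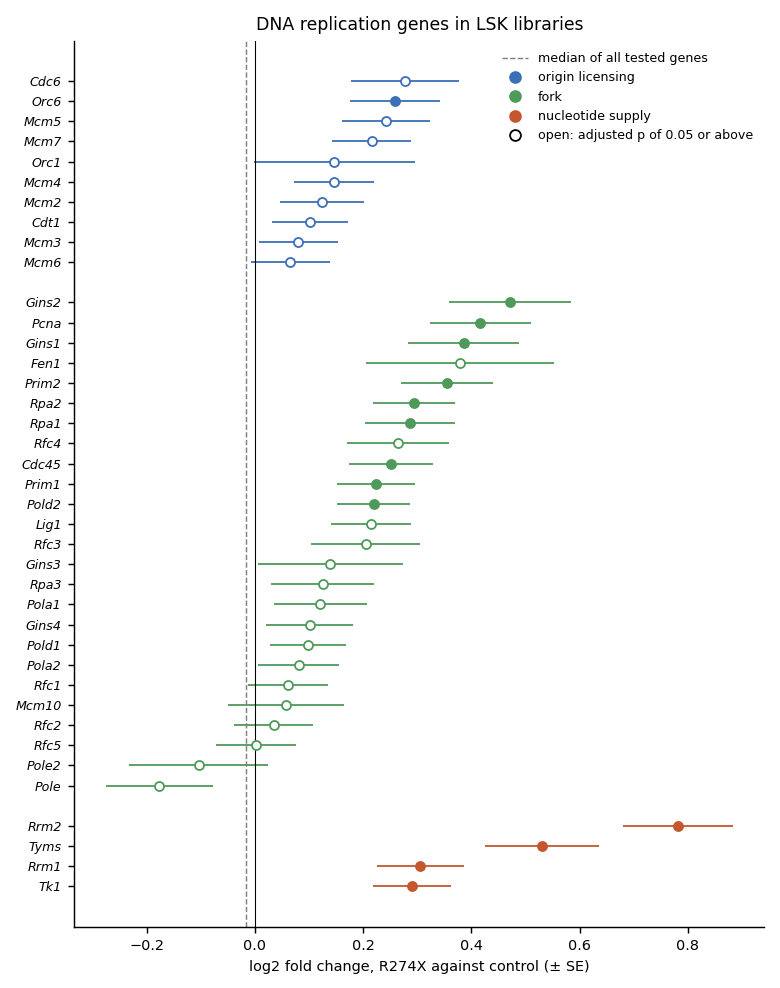
Log2 fold change of the 39 genes, R274X against control, with bars of 1 SE, by role and in falling order. Filled points passed an adjusted p of 0.05: all 4 nucleotide supply genes, 9 of 25 fork genes and Orc6 among the 10 licensing genes. The dashed line is the median of all tested genes, -0.02, and 16 of the genes had the opposite sign under quantile normalization.

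The count of 14 depended on single libraries. It was 3, 3 and 6 without control 1, 2 and 3, and 4, 2 and 20 without R274X 1, 2 and 3. The share called higher over all tested genes moved too, from 10.1% in the main analysis. That share was 5.61%, 4.56% and 7.71% without control 1 to 3, and 4.73%, 5.14% and 12.5% without R274X 1 to 3. Rrm2 and Tyms passed whichever library was left out, and the other 12 did not. R274X 3 stood nearest to the controls. Its mean log2 ratio to the control mean over the 39 genes was 0.12, against 0.24 in R274X 1 and 0.25 in R274X 2, while the controls lay between -0.02 and 0.01. R274X 3 was also the R274X library with the lowest immunoglobulin share (4.45%) and the lowest sums of B cell, plasma cell and macrophage markers (1706, 2025 and 1003 CPM). Its neutrophil sum was the highest of the 3 (34965 CPM, against 19993 and 13166), and its erythroid and T and NK cell sums lay between those of the other 2. With immunoglobulin genes removed before scaling, 15 of the 39 genes rose, among them all of the 14. That removal changes the scaling and the list of tested genes only. Any replication gene RNA from B cells or plasma cells stays in the counts, so the part of such cells was not tested by it.

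**Figure D2:**
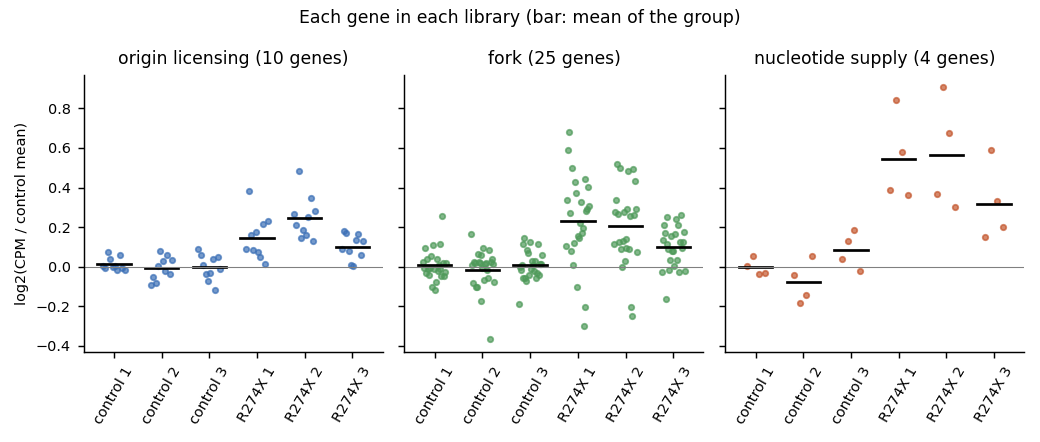
Log2 of each gene's CPM over its mean in the controls (vertical axis), for each library (horizontal axis) and role, with black bars for the mean of the genes. In nucleotide supply the means are 0.54, 0.56 and 0.32 in R274X 1 to 3. In licensing they are 0.15, 0.25 and 0.10, and at the fork 0.23, 0.20 and 0.10, from TMM scaling. Quantile normalization turned the licensing median to -0.05, beside -0.07 for all genes tested in that fit.

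Ribonucleotide reductase, which converts ribonucleotides to deoxynucleotides, is made of a large subunit encoded by Rrm1 and a small subunit encoded by Rrm2. Rrm2 (ENSMUSG00000020649) had the largest change of the 39 genes. It measured 139.8, 119 and 148 CPM in control 1 to 3 and 242, 253 and 203 CPM in R274X 1 to 3. Every R274X library was above every control. The means were 135 ± 14.9 and 233 ± 26.2 CPM (SD, n = 3 each), a rise of 1.72-fold (log2 0.78, SE 0.10, edgeR adjusted p = 0.000625). Rrm1 (ENSMUSG00000030978) measured 262, 254 and 269 CPM across the controls and 343, 338 and 290.5 CPM across the R274X libraries. Its groups did not overlap either, and R274X 3 was the closest to the controls. The rise was 1.24-fold (log2 0.31, SE 0.08, edgeR adjusted p = 0.0216), and it missed the threshold without control 1, control 2, R274X 1 or R274X 2 (adjusted p of up to 0.0941).

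Per length, in the deposited FPKM, the ratio of Rrm2 to Rrm1 was 2.12, 1.86 and 2.18 across the controls and 2.81, 2.98 and 2.78 across the R274X libraries. The means were 2.05 ± 0.172 and 2.85 ± 0.107 (SD, n = 3 each), and the ratio in R274X 3 was close to that in R274X 1 although both subunits were lower there. No R274X ratio overlapped the controls, and with 3 against 3 libraries an exact permutation test cannot go below 0.1. The size of this ratio depends on the merged exon lengths, 2771 bases for Rrm2 and 11012 for Rrm1. In CPM, without division by length, Rrm1 was above Rrm2 in every library.

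Tyms, thymidylate synthase, makes thymidylate from deoxyuridylate. Its gene (ENSMUSG00000025747) measured 94.4, 87.8 and 110.2 CPM across the controls and 145, 155 and 122 CPM across the R274X libraries. The groups did not overlap, with control 3 and R274X 3 next to each other. The rise was 1.44-fold (log2 0.53, SE 0.11, edgeR adjusted p = 0.00661), and it passed whichever library was left out (adjusted p of up to 0.0462), though not in limma on FPKM without a filter or with quantile normalization (up to 0.0801). The annotation names 1 Tyms retrocopy, so some reads could belong to it. Tk1, the cytosolic thymidine kinase that salvages thymidine, measured 106, 113 and 107 CPM across the controls and 139.6, 134 and 125 CPM across the R274X libraries. The groups did not overlap, and R274X 3 was again the closest to the controls. Tk1 rose 1.22-fold (log2 0.29, SE 0.07, edgeR adjusted p = 0.0166), and missed the threshold without control 1, control 3, R274X 1 or R274X 2 (up to 0.0766).

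**Figure D3:**
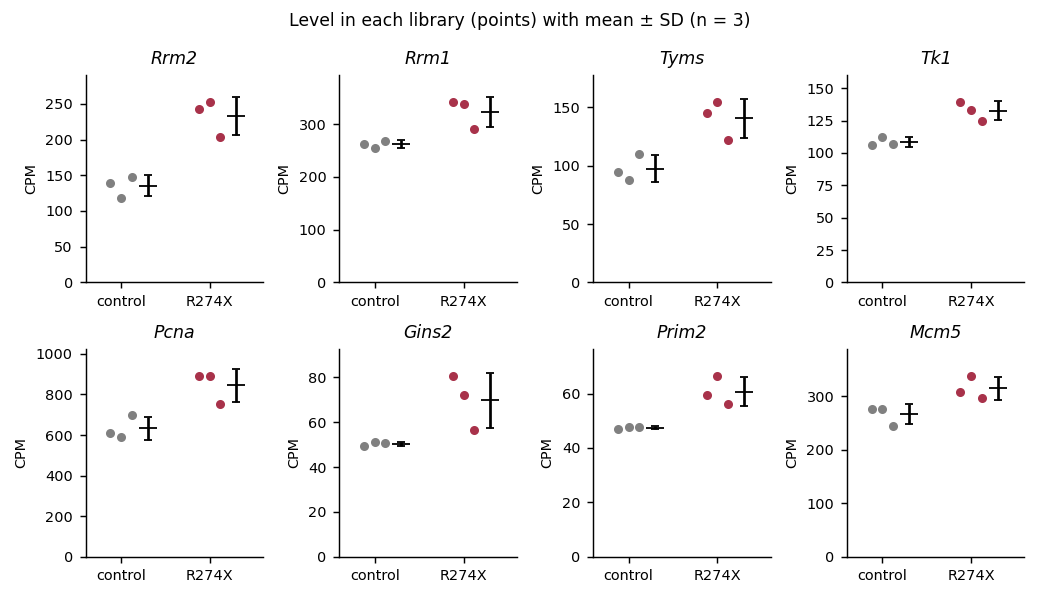
CPM in each library (points) with the group mean and SD (n = 3) for the 4 nucleotide supply genes and for Pcna, Gins2, Prim2 and Mcm5, axes from 0. The R274X points lie above all control points in each panel, and the widest gap is that of Rrm2, from 148 to 203 CPM.

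Other genes of nucleotide metabolism, a list of 27, gave a mixed picture: 5 rose, 1 fell and 21 did not pass, with a median of 0.05 (17 positive and 10 negative, and 10 and 17 under quantile normalization). Among those that rose were Impdh1, an IMP dehydrogenase of guanine nucleotide synthesis (1.61-fold, edgeR adjusted p = 0.00175), Dck, the deoxycytidine kinase of salvage (1.79-fold, 0.00661), and Dut, the dUTPase that removes dUTP (1.31-fold, 0.00767). Dck measured 86.4, 72.7 and 89.6 CPM across the controls and 155, 171 and 119 CPM across the R274X libraries. Impdh1 measured 112, 122 and 122 CPM and 202, 213 and 158 CPM. The groups of both genes were separate, and Impdh1 passed whichever library was left out. Dck missed the threshold without R274X 1 (adjusted p = 0.0534) and Dut without control 2 (0.0518). Shmt1 also rose, a serine hydroxymethyltransferase of folate metabolism (1.19-fold, 0.0356), which missed it in 5 of the 6 leave-outs.

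Dctd, the deoxycytidylate deaminase that feeds deoxyuridylate to thymidylate synthase, was the one that fell. It measured 46.4, 51.4 and 48.9 CPM across the controls and 34.4, 36.9 and 42.8 CPM across the R274X libraries (log2 fold change -0.36, edgeR adjusted p = 0.0226, 0.112 at most when a library was left out, and past the threshold in 2 of 6 leave-outs). The genes of new purine and pyrimidine synthesis, grouped after their values were seen, rose in 1 of 14, Impdh1, with a median of -0.02. The other 13 genes, of salvage, thymidylate and folate steps, rose in 4 and fell in 1, with a median of 0.16. Called higher were thus 7.14% of the 14 and 30.8% of the 13, beside 10.1% of all tested genes. Of all tested genes, 7.89% were called lower. Rrm2b, the alternative small subunit of ribonucleotide reductase, stood at a log2 fold change of 0.12 (adjusted p = 0.573), and Samhd1, which degrades deoxynucleotides, at 0.05 (0.748).

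At the fork, the 4 smallest p-values belonged to Pcna, Prim2, Gins2 and Rpa2. PCNA is the sliding clamp that holds polymerases on DNA. Pcna (ENSMUSG00000027342) measured 612, 588 and 698 CPM across the controls and 891, 891 and 752 CPM across the R274X libraries. Control 3 and R274X 3 came closest and did not overlap. Pcna rose 1.33-fold (log2 0.42, SE 0.09, edgeR adjusted p = 0.00944). It missed the threshold without control 1, control 2 or R274X 2 (up to 0.0565), its sign was reversed under quantile normalization (-0.02), and the annotation names 2 Pcna retrocopies that could share reads.

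The primase makes the RNA primers of each strand and has a catalytic subunit, Prim1, and a regulatory one, Prim2. Prim2 measured 46.8, 47.9 and 47.7 CPM across the controls and 59.6, 66.5 and 56.1 CPM across the R274X libraries. The controls differed from each other by far less than from any R274X library. Prim2 rose 1.28-fold (log2 0.36, SE 0.08, edgeR adjusted p = 0.013) and Prim1 1.17-fold (log2 0.22, 0.047). Their partners in the polymerase alpha complex, Pola1 (0.12, adjusted p = 0.364) and Pola2 (0.08, 0.499), did not pass. Prim2 missed the threshold without control 1, control 2 or R274X 2 (up to 0.0659). Prim1 passed only without R274X 3 (0.199 at most in the other 5 leave-outs) and missed the threshold in 9 of 13 other settings.

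The 4 GINS proteins form a complex of the active helicase. Gins2 measured 49.2, 51.1 and 50.6 CPM across the controls and 80.6, 72.0 and 56.5 CPM across the R274X libraries. R274X 3 lay a little above the controls and the other 2 well above. Gins2 rose 1.39-fold (log2 0.47, SE 0.11, edgeR adjusted p = 0.0161), and Gins1 rose 1.31-fold (log2 0.39, 0.022), while Gins3 (0.14, 0.513) and Gins4 (0.10, 0.416) did not pass. Without strand information Gins2 is uncertain, since 67.3% of its exon bases are shared with Gse1 on the opposite strand. Gins2 passed only without R274X 3 (up to 0.0665 in the others), and Gins1 only without control 1 or R274X 3 (up to 0.115). Cdc45, their partner in the helicase, rose 1.19-fold (log2 0.25, adjusted p = 0.0417), and passed only without R274X 3 (up to 0.155). Mcm10, which helps to start the helicase, stood at 0.06 (0.75).

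RPA coats single-stranded DNA. Rpa2, its middle subunit, measured 103, 106 and 106 CPM across the controls and 139, 129 and 119 CPM across the R274X libraries. Its groups were separate. Rpa2 rose 1.23-fold (log2 0.29, SE 0.08, edgeR adjusted p = 0.019), and Rpa1, the large subunit, rose 1.22-fold (log2 0.29, 0.0327). Rpa3, the small subunit, did not pass (0.13, adjusted p = 0.396). Rpa2 missed the threshold without control 1, control 2, R274X 1 or R274X 2 (up to 0.0832), and Rpa1 passed only without R274X 3 (up to 0.15).

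None of the 5 genes of the clamp loader, which opens PCNA and sets it on DNA, rose: Rfc4 stood at a log2 fold change of 0.26 (edgeR adjusted p = 0.0688), Rfc3 at 0.20 (0.186), Rfc1, the large subunit, at 0.06 (0.613) and Rfc2 at 0.03 (0.783), with negative signs for Rfc1, Rfc2 and Rfc5 under quantile normalization. Rfc5 had the largest p of the fork genes. It measured 102, 107 and 100.1 CPM across the controls and 96.0, 105 and 109 CPM across the R274X libraries, with a log2 fold change of 0.00 (SE 0.07, adjusted p = 0.989). Its groups overlapped.

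Of the leading-strand polymerase epsilon, Pole, the catalytic subunit, measured 42.4, 37.6 and 37.6 CPM across the controls and 31.8, 33.9 and 38.5 CPM across the R274X libraries. R274X 3 lay inside the range of the controls. The log2 fold changes of Pole (-0.18, SE 0.10, edgeR adjusted p = 0.245) and Pole2 (-0.10, SE 0.13, 0.62) did not pass, and nor did those of the small subunits Pole3 (0.14, 0.184) and Pole4 (-0.09, 0.486). Of polymerase delta, which makes the lagging strand, Pold2 rose 1.16-fold (log2 0.22, adjusted p = 0.0399) and the catalytic Pold1 did not pass (0.10, 0.361). Pold2 passed only without R274X 3 (up to 0.148 in the other 5) and missed the threshold with offsets for gene length (0.121). Its sign was negative under quantile normalization (-0.01). Lig1, the ligase that joins Okazaki fragments, just missed (0.22, 0.0615). Fen1, the flap endonuclease that trims them, had a log2 fold change of 0.38 with a wide error (SE 0.17, 0.153) and only 9.42 ± 2.01 and 12.2 ± 1.01 CPM (SD, n = 3 each), and 78.8% of its exon bases are shared with the antisense gene Gm10143.

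Other fork genes, a list of 21, rose in 5 and fell in 0, with 16 not passing and a median of 0.14 (17 positive and 4 negative, and 13 and 8 under quantile normalization). Asf1b, a histone chaperone that hands histones to new DNA, had the largest change of the list. It measured 52.6, 47.7 and 51.6 CPM across the controls and 100.6, 119.6 and 87.6 CPM across the R274X libraries. The lowest R274X library was well above the highest control. Asf1b rose 2.03-fold (log2 1.02, SE 0.10, edgeR adjusted p = 0.000156) and passed whichever library was left out, as did Tipin, a fork protection factor (1.30-fold, 0.00579). Rnaseh2c, a subunit of the RNase H2 that removes RNA from DNA (1.34-fold, 0.00905), missed the threshold without control 2 (0.0642). Clspn, the checkpoint adaptor claspin (1.37-fold, 0.0117), missed it without control 2 or R274X 2 (up to 0.0687). The fifth was Top2a, a topoisomerase (1.19-fold, 0.0391), which passed only without R274X 3 (up to 0.152). Among those that did not pass were Timeless (log2 -0.08, edgeR adjusted p = 0.574) and the other RNase H2 subunits, Rnaseh2a (-0.03, 0.814) and Rnaseh2b (0.26, 0.0668).

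Origin licensing genes had the lowest median of the 3 roles in the main analysis. Without R274X 1 the fork median was the lowest, at 0.12, against 0.19 for the licensing genes. All 10 had a positive sign in edgeR, but 7 of them, Cdt1 and Mcm2 to Mcm7, had a negative one under quantile normalization, and 1 rose. Orc6, a subunit of the origin recognition complex, measured 53.1, 51.5 and 55.7 CPM across the controls and 69.5, 61.8 and 60.5 CPM across the R274X libraries. The groups did not overlap, and R274X 3 was the closest to the controls. Orc6 rose 1.20-fold (log2 0.26, SE 0.08, edgeR adjusted p = 0.0471), at the edge of the threshold, and passed only without R274X 3 (0.188 at most in the other 5). It missed the threshold in 10 of 13 other settings, DESeq2 among them (0.0517). Orc1, the subunit that comes and goes with the cell cycle, did not pass (0.15, adjusted p = 0.539). Cdc6, the loading ATPase, measured 45.1, 40.5 and 43.1 CPM across the controls and 47.9, 59.9 and 48.2 CPM across the R274X libraries. R274X 2 was far above the other libraries, and the change did not pass (log2 0.28, SE 0.10, adjusted p = 0.0732). Cdt1, the other loading factor, stood at 0.10 (0.344).

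The 6 subunits of the MCM helicase are needed in equal numbers in the ring. None of them passed. Mcm5 measured 277, 277 and 244 CPM across the controls and 309, 338 and 297 CPM across the R274X libraries (log2 fold change 0.24, SE 0.08, edgeR adjusted p = 0.057). Mcm7 measured 381, 395 and 383 CPM and 454, 469 and 423 CPM (0.22, SE 0.07, 0.0607). Both genes had separate groups and lay just outside the threshold, and both passed without R274X 3 (0.0281 and 0.0262), in DESeq2 (0.0254 and 0.0199) and with offsets for gene length (0.0362 and 0.0314). Both missed the threshold in the other 5 leave-outs (up to 0.212 and 0.198). Mcm5 missed it in 8 of 13 other settings and Mcm7 in 11 of 13. Mcm4 measured 151, 150.3 and 157 CPM and 158, 181 and 167 CPM, so that R274X 1 was next to control 3 (0.15, SE 0.07, 0.195). Mcm2 measured 225, 237 and 213 CPM across the controls and 254, 256 and 226 CPM across the R274X libraries (0.12, SE 0.08, 0.3), with R274X 3 inside the control range. Mcm3 measured 272, 278 and 266 CPM and 287, 304 and 273 CPM (0.08, SE 0.07, 0.488). Mcm6 measured 426, 416 and 442 CPM and 431, 467 and 445 CPM (0.07, SE 0.07, 0.576). The groups of Mcm2, Mcm3 and Mcm6 overlapped.

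The remaining licensing and origin firing genes, a list of 13, rose in 1 and fell in 0, with a median of 0.02 (7 positive and 6 negative, and 6 and 7 under quantile normalization). Called higher were thus 7.69% of this list, beside 10.1% of all tested genes. The riser was Gmnn, which encodes geminin, the inhibitor of CDT1 that blocks relicensing in S and G2. It measured 72.1, 70.3 and 77.4 CPM across the controls and 94.6, 91.4 and 86.6 CPM across the R274X libraries. The groups were separate. Gmnn rose 1.24-fold (log2 0.31, SE 0.07, edgeR adjusted p = 0.0126), and missed the threshold without control 1, control 2 or R274X 1 (up to 0.0739). The origin recognition subunits Orc2 (0.18, adjusted p = 0.233), Orc3 (-0.03, 0.83), Orc4 (-0.11, 0.436) and Orc5 (-0.18, 0.252) did not pass. Neither did the firing kinase subunits Cdc7 (0.05, 0.782) and Dbf4 (0.22, 0.0618).

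Levels per length were compared in the authors' FPKM, which divide by merged exon length and so lower genes with long retained introns. Mean FPKM ran from 2.64 for Orc1 to 261 for Pcna across the controls and from 2.94 to 351 for the same genes across the R274X libraries. Within the MCM helicase they ran from 32.1 (Mcm2) to 90.9 (Mcm6) across the controls and from 35.2 (Mcm2) to 101 (Mcm7) across the R274X libraries. The spread between subunits was thus 2.83-fold and 2.87-fold. The clamp loader ran from 11.1 (Rfc1) to 36.8 (Rfc4) across the controls and from 11.6 to 44.4 across the R274X libraries, and RPA from 22.5 (Rpa1) to 43.8 (Rpa3) and from 27.6 to 48.0. GINS was the most uneven, from 6.11 (Gins3) to 44.7 (Gins4) and from 6.77 to 48.3. For 38 of the 39 genes the FPKM implied the merged exon length of GENCODE M21 within 1%. The exception was Pola2, for which it implied 2872 bases against 8294.

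**Figure D4:**
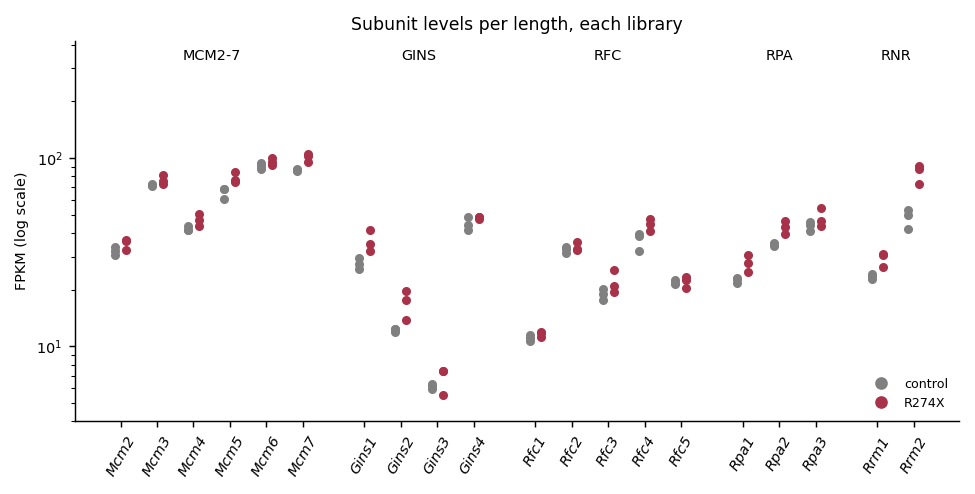
Deposited FPKM (log axis) of the subunits of the MCM helicase, GINS, the clamp loader RFC, RPA and ribonucleotide reductase (RNR), with 1 point per library, control in grey and R274X in red. Subunits of 1 complex differ by 1.74-fold (RPA in R274X) to 7.32-fold (GINS in controls), more than the groups do.

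Gene length moved with the change over all genes. The median log2 fold change was 0.20 in the shortest of 10 equal bins of tested genes and -0.13 in the longest bin, and Spearman's rho with merged exon length was -0.24 over 14602 genes, which share libraries and depth. It was -0.27 over the 39 genes and -0.46 over the 25 fork genes. Against the median of all genes in the same length bin, 36 of the 39 genes were higher, by a median of 0.21. The median difference was 0.17 in licensing, 0.18 at the fork and 0.53 in nucleotide supply. With offsets for gene length fitted per library, 16 genes rose: all 4 nucleotide supply genes, 9 fork genes and 3 licensing genes, and 12 of the 16 were among the 14. Rrm1, the longest of the 4 nucleotide supply genes, then had a log2 fold change of 0.44 (edgeR adjusted p = 0.00425), while Orc6 (0.23, 0.0692) and Pold2 (0.16, 0.121) no longer passed and Cdc6 (0.33, 0.0388), Mcm5, Mcm7 and Lig1 (0.24, 0.0373) did.

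**Figure D5:**
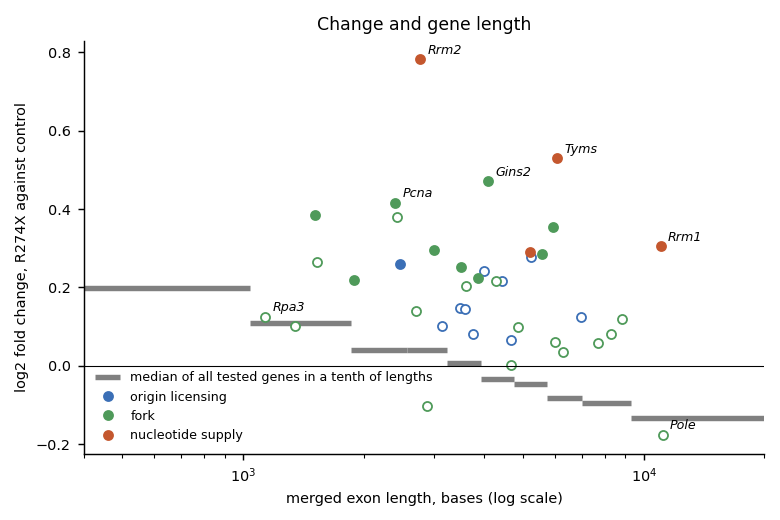
Log2 fold change (vertical) against merged exon length in bases (horizontal, log axis) for the 39 genes, filled where they passed, with grey bars for the median of all tested genes in each of 10 length bins. The grey bars run from 0.20 down to -0.13, and Rrm2 (0.78) and Tyms (0.53) lie highest above them.

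Promoters of many replication genes hold sites for E2F factors, which switch on genes of the G1 to S transition, and CCAAT boxes bound by NF-Y. RefSeq windows are shown for 4 genes, each with 1 of the 2 smallest p in its role among genes with a window. Of these, Mcm5 did not pass (edgeR adjusted p = 0.057). The windows are the 250 bases before the RefSeq start, 5′ to 3′ along the gene, in build GRCm38.p6. GENCODE M21 places the starts elsewhere: its gene begins 60 bases after the Mcm5 window and 8 after that of Tyms, and covers the last 28 bases of the Rpa2 window and the last 13 of that of Rrm2. Capitals mark any of 4 E2F-like spellings (TTTCCCGC, TTTGGCGC, TTTGCCGC and TTTCGCGC) or CCAAT, on either strand.
Rrm2: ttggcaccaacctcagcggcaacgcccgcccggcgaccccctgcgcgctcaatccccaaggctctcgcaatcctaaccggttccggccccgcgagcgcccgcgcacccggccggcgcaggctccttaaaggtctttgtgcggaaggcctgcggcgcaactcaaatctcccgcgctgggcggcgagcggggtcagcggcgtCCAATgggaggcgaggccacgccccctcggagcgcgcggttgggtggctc
Tyms: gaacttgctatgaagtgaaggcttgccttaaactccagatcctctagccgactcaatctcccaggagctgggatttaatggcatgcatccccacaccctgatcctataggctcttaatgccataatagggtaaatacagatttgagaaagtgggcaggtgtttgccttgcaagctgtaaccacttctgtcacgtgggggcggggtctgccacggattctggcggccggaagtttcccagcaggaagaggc
Rpa2: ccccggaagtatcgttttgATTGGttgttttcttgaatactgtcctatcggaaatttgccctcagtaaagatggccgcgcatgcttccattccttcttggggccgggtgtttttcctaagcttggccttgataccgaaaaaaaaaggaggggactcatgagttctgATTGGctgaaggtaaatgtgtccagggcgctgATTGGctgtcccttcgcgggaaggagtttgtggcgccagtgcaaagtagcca
Mcm5: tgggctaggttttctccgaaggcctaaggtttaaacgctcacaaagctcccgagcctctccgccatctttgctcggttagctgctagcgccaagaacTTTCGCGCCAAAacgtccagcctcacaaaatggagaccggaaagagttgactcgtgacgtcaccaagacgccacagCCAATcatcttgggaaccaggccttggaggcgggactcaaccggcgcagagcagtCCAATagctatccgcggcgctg
These lie at chr12:24708004-24708253 on the plus strand (Rrm2), chr5:30073626-30073875 on the minus strand (Tyms), chr4:132768110-132768359 on the plus strand (Rpa2) and chr8:75109259-75109508 on the plus strand (Mcm5).

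The Rrm2 window held CCAAT 50 to 46 bases before the RefSeq start. The Pcna and Orc6 windows, whose letters are not shown, held it on the other strand at 87 to 83 and 54 to 50, and 134 bases of the Pcna window, this box among them, lie inside the GENCODE gene. The Rpa2 window held 3 such boxes on the other strand. The Mcm5 window held CCAAT at 77 to 73 and 22 to 18, and 2 E2F-like spellings on opposite strands that overlap (TTTCGCGC at 153 to 146 and TTTGGCGC at 149 to 142). The Tyms window held none of these letters. RefSeq windows were found for 32 of the 39 genes, and Mcm4, Gins1, Gins2, Gins4, Rfc2, Prim2 and Pole had none. An E2F-like spelling stood in 8 of the 32 (25%), against 2.16% of 27025 genes with a window, and CCAAT in 21 (65.6%), against 37.5%. By role the E2F-like spellings were in 5 of 9 licensing, 3 of 19 fork and 0 of 4 nucleotide supply genes. They were in 0 of the 11 windows of genes that rose and in 8 of the 21 of genes that did not pass, and CCAAT was in 9 and 12 of these. A match of letters is not a bound site, and other spellings were not searched.

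Whether the counting used strand is not known here, and 14 of the 39 genes share exon bases with another gene. Apart from Gins2 and Fen1, the shared part was at most 15.1% of a gene's exon bases (Rfc2 with Lat2). The other 25 share none.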

How the data were processed

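RNA was measured by sequencing in 6 libraries of bone marrow LSK cells, 3 controls and 3 R274X, grouped by the genotype label. TRIzol was used for extraction and libraries were made, per the labels' protocols, with an Illumina TruSeq RNA kit. The authors deposited whole-number read counts and FPKM values for 54532 Ensembl genes per library, per the file headers. The submitters' processing notes name Bowtie and the mm8 build; no counting tool, annotation or strand setting was named there. Library sizes recovered from the deposited FPKM were the product of median-ratio size factors and the totals' geometric mean, so these FPKM are already scaled between libraries, whereas the counts are not. Symbols came from a table of Ensembl IDs (54409 matched), and lengths from GENCODE M21 (GRCm38); no coordinates of mm8 are given.

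Counts were tested with edgeR 4.0.16 (quasi-likelihood, TMM, robust, minimum count 10) in R 4.3.3, with Benjamini-Hochberg adjustment over all tested genes. SE is the log2 fold change over the square root of F. The replicates differed by more than sampling noise (chi-square per gene of at least 12.0). The members, lists and tests were chosen with earlier results of these data known. Library values were given for genes named by rule: the MCM and nucleotide supply genes, the 4 smallest p and the largest p of each other role, up to 4 of each further list, and genes called lower. Pole, Pole3, Pole4, Fen1, Shmt1, Top2a, Timeless, Rnaseh2a, Rnaseh2b, Rrm2b, Samhd1, Orc2 to Orc5, Cdc7 and Dbf4 were given values outside that rule, chosen after their values were seen. So were the markers Nkg7, Cd3e, Il7r, Klf1 and Car1. A gene that the rule would have named is not reported here. Promoter letters were to be shown for 2 genes of each role, but those of Pcna and Orc6 were left out. In the Pcna window 134 bases are annotated as UTR of Pcna itself. In the Orc6 window 174 bases are annotated as UTR of another gene, Vps35. The shown windows of Rpa2 and Rrm2 hold 25 and 13 bases of their own UTR. In simulated counts for this comparison with 14608 genes, edgeR called 42% of 100 genes changed 1.5-fold and 87% of 100 genes changed 2-fold. The adjusted p depends on how many genes change, and the real comparison called 1469 genes higher and 1152 lower. The simulated shares therefore do not tell what share of real changes was missed here.

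The alternatives were DESeq2 1.42.0, limma-voom (limma 3.58.1), upper-quartile or RLE scaling, testing every gene, keeping genes that average 50 counts or more, robust off, each library left out, immunoglobulin genes removed, length offsets (lowess per library) and limma on log2 of FPKM plus 1 (mean FPKM 0.5 or more) with a pseudocount of 0.1, no filter or quantile normalization.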

Additional observations from a re-analysis of the deposited data

How the results depend on the processing

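No paired analysis was possible because the labels give no replicate numbers shared between the groups. Of the 39 genes, 14 were called higher in the main analysis, and 9 with upper-quartile scaling, 6 and 7 with limma on FPKM plus 1 and plus 0.1, 1 without the FPKM filter and 1 with quantile normalization. Leaving out 1 library gave 2 to 20. Over all tested genes, the share called higher was 10.1% in the main analysis and 8.32% with upper-quartile scaling. In the 4 FPKM fits, in the same order, that share was 7.22%, 7.02%, 1.73% and 4.81%. It was 4.56% to 12.5% when a library was left out. Licensing genes called numbered 2 with DESeq2, RLE scaling or immunoglobulin genes removed, 3 with length offsets, and 0 with upper-quartile scaling, a mean count of at least 50, robust off and all 4 FPKM fits (0 to 4 when a library was left out). Fork genes numbered 5 with upper-quartile scaling and 3, 4, 0 and 0 in the FPKM fits (0 to 12). Nucleotide supply genes numbered 1 without the FPKM filter and 1 with quantile normalization, Rrm2 in both (2 to 4). In the same 2 fits the further lists gave 0 and 0 (licensing), 1 and 2 (fork) and 1 and 2 (nucleotide), length offsets gave 2 further licensing genes, and leaving out a library gave 0 to 1, 2 to 6 and 2 to 5. Over the whole table, all genes called higher numbered 967 (plus 0.1), 435 (no filter) and 663 (quantile), and all genes called lower numbered 586, 565 and 225 in the FPKM fits without quantile normalization; leaving out a library gave 682 to 1882 higher and 507 to 1413 lower.

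Quantile normalization turned the licensing median to -0.051 and moved the fork median to 0.048, and leaving out a library gave fork medians of 0.12 (without R274X 1) to 0.25. It gave negative values for 16 genes: Cdt1 -0.018, Mcm2 -0.057, Mcm3 -0.21, Mcm4 -0.084, Mcm5 -0.044, Mcm6 -0.25, Mcm7 -0.094, Gins4 -0.12, Pcna -0.021, Rfc1 -0.013, Rfc2 -0.14, Rfc5 -0.10, Pola2 -0.091, Pold1 -0.074, Pold2 -0.015 and Rpa3 -0.10. The cause was not tested, and the median of all genes moved by -0.06 in that fit, to -0.07. Upper-quartile scaling gave Rfc2 -0.010 and Rfc5 -0.042, no filter Rfc5 -0.017 and a mean count of at least 50 Rfc5 -0.0087. When a library was left out, Mcm10 ranged from -0.043 to 0.13, Rfc2 from -0.014 to 0.061 and Rfc5 from -0.035 to 0.055. Counts limit Orc1 and Fen1, the genes with the fewest reads.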
